A study of Mus musculus with 6 samples.

Results

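The 8 genes described here encode the enzymes that make and break down sphingosine-1-phosphate (S1P). They are the kinases Sphk1 and Sphk2, the lyase Sgpl1, the S1P phosphatases Sgpp1 and Sgpp2, and the lipid phosphate phosphatases Plpp1, Plpp2 and Plpp3. They were chosen by symbol, and all 8 were found by Ensembl identifier among the 46983 genes of the count files. RNA sequencing was carried out on cells labelled as mouse embryonic fibroblasts, in 3 libraries labelled KO (genotype SphK2 null) and 3 labelled WT (wild type). All cells were from 14-day embryos of the C57BL/6 strain at passage 16, and all were grown in DMEM with serum. By its title the series concerns breast tumour stroma, and the design sets cells labelled as fibroblasts lacking sphingosine kinase 2 against wild-type ones. How the null allele was made, and which part of the gene it lacks, is not stated by any source used here. Nor do the labels say whether libraries of a group came from separate embryos or cultures, so p-values reflect library-to-library spread alone, and that spread may be technical.

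S1P is a lipid signal with a short life. Ceramidases free sphingosine from ceramide, and the kinases phosphorylate it. SphK1 works mostly in the cytosol and at the plasma membrane, and SphK2 mostly at the nucleus, endoplasmic reticulum and mitochondria. The phosphatases turn S1P back into sphingosine, while the lyase cuts it for good into hexadecenal and phosphoethanolamine, the only exit from the sphingolipid pathway. S1P that leaves the cell acts on G protein-coupled receptors that steer migration, survival and contraction of fibroblasts and other stromal cells.

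Total counts ran from 15598566 to 23681718 per library, and 3 counts, taken as the detection floor of a library, corresponded to 0.127 to 0.192 CPM (counts scaled to a common library total). The labelled cell type was checked first. All 10 fibroblast marker genes were lower in the KO-labelled libraries, with summed levels of 3397 to 3435 CPM, against 13981 to 14363 CPM in the WT-labelled libraries. Most of the KO-labelled sum was vimentin (Vim, 3272 ± 19.1 CPM, SD, n = 3), a filament protein of mesenchymal cells that is not limited to fibroblasts. The collagen gene Col1a1 stood at 1.71 ± 0.213 CPM in KO-labelled and 609.9 ± 16.2 CPM in WT-labelled libraries (SD, n = 3), and the surface marker Thy1 had no count in the KO-labelled libraries. Col1a2, Col3a1, Fn1, Dcn and Lum kept from 0.17% (Fn1) to 0.54% (Dcn) of the WT-labelled mean. The receptor genes Pdgfra and Pdgfrb kept more, at 91.1 ± 1.18 and 29.5 ± 1.09 CPM in KO-labelled libraries (SD, n = 3). Their WT-labelled levels were 244 ± 7.71 and 105 ± 2.31 CPM (SD, n = 3). Of 9 epithelial markers, 3 passed the filter on low counts, with 2 higher and 1 lower, and the list summed to 392 to 419 CPM in KO-labelled and 105 to 108 CPM in WT-labelled libraries. Nearly all of this was keratin 8 (Krt8), and the defining markers Epcam and Cdh1 stayed below 0.4 CPM on average in both groups. Of 6 trophoblast markers, 2 passed the filter, with 1 higher and 1 lower. That list summed to 20.3 to 21.0 CPM in KO-labelled and 1.15 to 2.05 CPM in WT-labelled libraries, almost all of it Hand1 in the KO-labelled ones, and Cdx2 was at 0 in all. Of 4 endothelial markers, 2 passed the filter, and the list summed to 2.04 to 2.99 CPM against 1.56 to 2.05 CPM. Of 4 immune markers, 2 passed as well, and the list summed to 3.04 to 3.66 CPM against 3.59 to 3.65 CPM. These shifts accompany every difference below, and their part in it was not tested. In bulk RNA, fewer cells of a type and less RNA per cell cannot be told apart.

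The enzymes of S1P moved in both directions, and 1 of them was almost lost. In the KO-labelled libraries 2 of the 8 genes rose (Sphk2 and Plpp2), 5 fell (Sphk1, Sgpl1, Sgpp1, Plpp1 and Plpp3) and 1 did not pass the test (Sgpp2), by edgeR's quasi-likelihood test at a Benjamini-Hochberg adjusted p under 0.05. Over all 15199 genes tested, 79.2% passed in either direction, 38.1% higher and 41.1% lower (5795 and 6245 genes, but 6334 and 5707 with scaling by library totals), so the count of 7 in 8 is close to that of genes at large. In these 7 genes the KO-labelled and WT-labelled libraries also did not overlap in CPM, as in 79.8% of all genes tested. The median log2 fold change of the 8 was -0.45, beside -0.02 over all genes tested. Fold changes are fitted with a scaling for composition (TMM), so they differ slightly from the ratios of the CPM values. What set the members apart from each other was the size of the change, with log2 fold changes from -6.68 for Plpp3 to 0.87 for Sphk2.

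**Figure D1:**
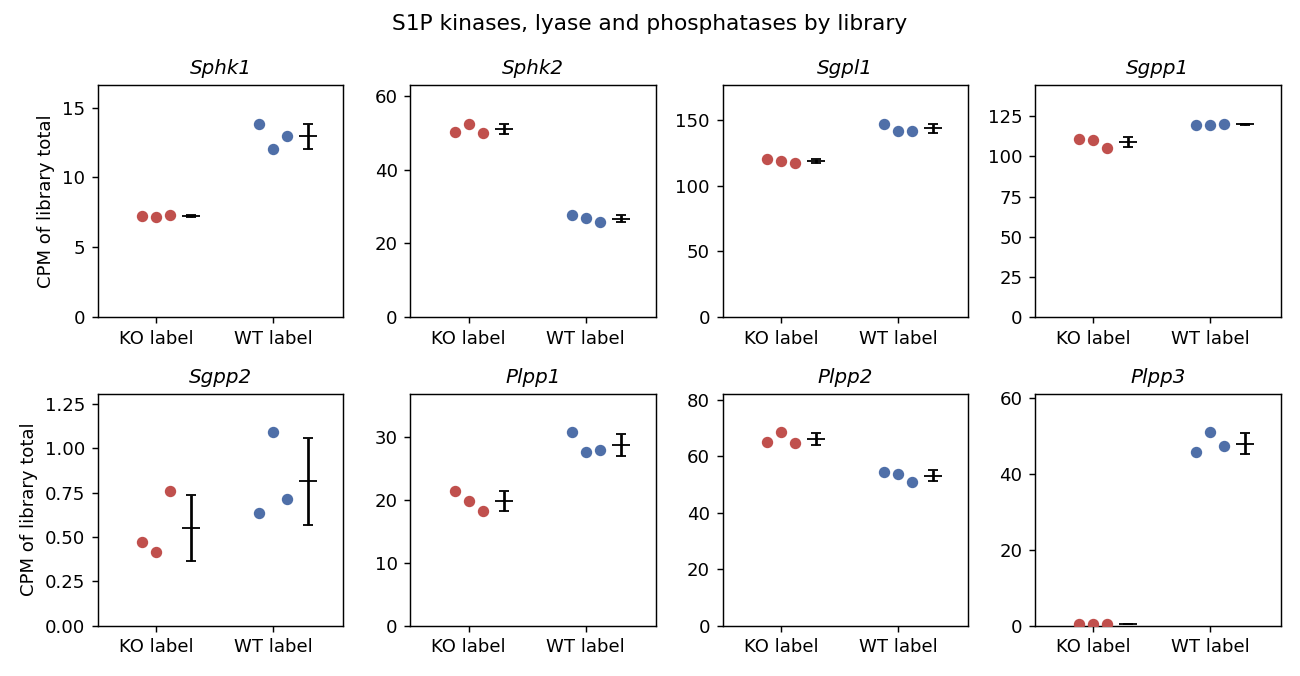
Level of each gene in CPM of the library total (y axis, a separate linear scale from 0 for each gene) in the 3 KO-labelled (red) and 3 WT-labelled (blue) libraries, 1 point per library, with the mean and SD in black. Plpp3 was at 0.417 to 0.543 CPM in KO-labelled libraries and 45.6 to 50.9 CPM in WT-labelled ones, and Sgpp2 is the gene whose groups overlap.

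The kinases went opposite ways. Sphk2, the gene named by the genotype, was present in every library and was not lower in those labelled KO. It stood at 50.3, 52.5 and 50.05 CPM in KO-labelled libraries, against 27.6, 26.8 and 25.7 CPM in WT-labelled libraries. All KO-labelled values were thus above all WT-labelled ones, against the direction of the label, so directions below are between labels, not between verified genotypes. EdgeR put the log2 fold change at 0.87 ± 0.051 (SE, adjusted p = 4.48e-64). Of all genes tested, 12.5% rose by as much or more.

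The counts do not cover Sphk2 evenly, which bears on what they can show. Sphk2 (ENSMUSG00000057342) maps to chromosome 7, bases 45709467 to 45718002 (mm10, minus strand), with 4159 exonic bases in 8 blocks. Its 2 most upstream blocks, of 302 and 71 bases, lie entirely within exons of Rpl18, a ribosomal protein gene on the opposite strand. At the other end, 491 bases of the last block, which spans 2345 bases, belong also to Dbp, a transcription factor of the circadian clock, on the opposite strand too. By the counter's default, a read on exons of several genes counts for none of them, so the Sphk2 counts come from the remaining 3295 bases, which lie in 6 of the 8 blocks. Both partners were themselves higher in KO-labelled libraries, by edgeR log2 fold changes of 0.76 ± 0.029 for Rpl18 (SE, adjusted p = 3.10e-153) and 1.80 ± 0.090 for Dbp (SE, adjusted p = 9.84e-87). Rpl18 stood at 229 ± 1.43 CPM in KO-labelled and 129.98 ± 5.12 CPM in WT-labelled libraries (SD, n = 3), and Dbp at 20.4 ± 0.865 CPM and 5.63 ± 0.409 CPM in the same order. The files sum all blocks of a gene, so a deletion of single blocks cannot be read from them.

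Sphk1, the kinase that growth factors activate at the plasma membrane, fell. It stood at 7.26, 7.14 and 7.28 CPM in KO-labelled libraries, against 13.9, 12.1 and 12.95 CPM in WT-labelled libraries. The coefficient of variation was 1.05% in KO-labelled and 6.94% in WT-labelled libraries, and the ranges stayed apart. With 120 to 139 counts per KO-labelled and 188 to 328 per WT-labelled library, counting error alone exceeds the smaller of these spreads. The contrast in spread was therefore not read as a difference between groups. EdgeR put the log2 fold change at -0.91 ± 0.095 (SE, adjusted p = 4.13e-21). Of all genes tested, 16.7% fell by as much or more. Sphk1 maps to chromosome 11, bases 116530925 to 116536674 (plus strand), and 192 of its 4774 exonic bases are shared with the antisense gene model Gm29292, which had at most 2 counts in any library.

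Because one kinase rose while the other fell, the balance between them shifted. On a scale of CPM per kilobase of exon, Sphk2 made up 88.8%, 89.4% and 88.8% of kinase transcripts in KO-labelled libraries, against 69.6%, 71.8% and 69.5% in WT-labelled libraries. Sphk2 was therefore the more abundant kinase transcript in all 6 libraries. The mean share differed by 18.7 percentage points and the groups did not overlap, although 3 libraries against 3 cannot give an exact permutation p under 0.1. The summed kinase level was 13.8 ± 0.312 CPM per kb in KO-labelled and 9.14 ± 0.351 CPM per kb in WT-labelled libraries (SD, n = 3), so the rise of Sphk2 was larger than the fall of Sphk1 on this scale. Division by full exonic length understates Sphk2 more than Sphk1, since Sphk2 counts come from 3295 of 4159 bases.

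The stretches just upstream of a start of each kinase gene are shown because these genes differ in opposite directions. They hold the 250 bases before a RefSeq start (GRCm38.p6), read 5′ to 3′ along the gene. Where the table gives several starts, 5 for Sphk1 and 2 for Sphk2, the start whose stretch overlaps exons least was taken, since the region before the most upstream Sphk2 start lies in Rpl18 exons. Capitals mark matches to GGGCGG (GC box, or CCGCCC on the other strand) and CCAAT (or ATTGG), and TATAAA (or TTTATA) and TGACGTCA were searched too. The Sphk1 stretch is chr11:116532194-116532443 on the plus strand, and that of Sphk2 is chr7:45715208-45715457 on the minus strand. Both stretches lie inside the genes as annotated, before internal starts, and which start these cells use was not tested.
Sphk1: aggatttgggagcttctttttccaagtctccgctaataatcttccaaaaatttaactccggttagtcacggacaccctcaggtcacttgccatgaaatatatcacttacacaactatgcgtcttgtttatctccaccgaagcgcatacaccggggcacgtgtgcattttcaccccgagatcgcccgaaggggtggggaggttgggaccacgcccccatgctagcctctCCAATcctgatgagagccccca
Sphk2: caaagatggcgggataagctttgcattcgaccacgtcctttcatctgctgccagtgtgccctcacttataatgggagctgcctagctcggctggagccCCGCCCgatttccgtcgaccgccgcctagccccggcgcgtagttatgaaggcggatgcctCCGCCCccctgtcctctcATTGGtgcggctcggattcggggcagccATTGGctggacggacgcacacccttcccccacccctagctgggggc
The Sphk2 stretch held 2 GC boxes and 2 CCAAT matches, all on the other strand, and 20 CpG dinucleotides. The Sphk1 stretch held 1 CCAAT match, 22 bases before the start, and 12 CpG dinucleotides. Over the 32851 stretches of the same length in the table, 32.7% hold a GC box, 33.8% CCAAT, 12.4% TATAAA and 1.55% TGACGTCA, and the median is 6 CpG. No match of the first kind overlapped one of the second.

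Sgpl1, which encodes the lyase, fell by a small amount. It stood at 120.4, 119 and 117 CPM in KO-labelled libraries, against 147, 142 and 142 CPM in WT-labelled libraries. The groups did not overlap, and the spread within each was under 2.3%. EdgeR put the log2 fold change at -0.33 ± 0.031 (SE, adjusted p = 1.29e-25). A change of this size is common in these libraries, since 61.1% of all genes tested differed by as much or more in either direction, and 31.6% fell by as much. Sgpl1 maps to chromosome 10, bases 61098642 to 61147703 (minus strand), and none of its 6143 exonic bases is shared with another gene.

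The S1P phosphatases of the endoplasmic reticulum, which return sphingosine to ceramide synthesis, were carried almost wholly by Sgpp1. Sgpp1 stood at 111, 110.3 and 105 CPM in KO-labelled libraries, against 119, 119.9 and 120.4 CPM in WT-labelled libraries. The groups did not overlap, and the fall was the smallest of the 7 changes, which edgeR put at -0.20 ± 0.033 on the log2 scale (SE, adjusted p = 4.00e-09). Of all genes tested, 75.5% differed by as much or more in either direction, and 38.9% fell by as much or more. Sgpp1 maps to chromosome 12, bases 75714248 to 75735729 (minus strand).

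Sgpp2, the other phosphatase of this pair, was close to the detection floor. It had 9, 7 and 14 counts in KO-labelled libraries, against 15, 17 and 14 counts in WT-labelled libraries, or 0.549 ± 0.185 CPM and 0.813 ± 0.243 CPM (SD, n = 3). The groups overlapped. EdgeR put the log2 fold change at -0.56 ± 0.344 (SE, adjusted p = 0.124), and its 95% interval ran from -1.24 to 0.11, so neither a fall by more than 2-fold nor no change lies outside it. Sgpp2 maps to chromosome 1, bases 78310345 to 78420289 (plus strand), and 248 of its 4002 exonic bases overlap exons of Farsb, a tRNA synthetase subunit gene. Per kb of exon, Sgpp1 made up 99.6% of the transcripts of the pair in KO-labelled and 99.4% in WT-labelled libraries, and the per-library shares overlapped.

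The lipid phosphate phosphatases, membrane enzymes whose active site faces the outside of the cell or the lumen of organelles, held the largest and one of the smallest changes. They dephosphorylate S1P and also lysophosphatidic acid, phosphatidic acid and ceramide-1-phosphate. Plpp3, which limits lysophosphatidic acid and S1P signalling at the cell surface and is needed for mouse development, had 9, 7 and 10 counts in KO-labelled libraries, against 1081, 794 and 922 counts in WT-labelled libraries. These correspond to 0.470, 0.417 and 0.543 CPM in KO-labelled and 45.6, 50.9 and 47.2 CPM in WT-labelled libraries. The KO-labelled libraries kept 0.995% of the WT-labelled mean, a trace above the floor of 3 counts in each library.

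The log2 fold change of Plpp3 was -6.68 ± 0.122 (SE), and its edgeR adjusted p was too small for the program to represent (written as 0). The summed counts were 26 in KO-labelled and 2797 in WT-labelled libraries. Scaled for depth, the WT-labelled sum was 99.4 times as high, with an exact binomial 95% interval of 67.7 to 152 for counting error only. Losses of this size were not confined to Plpp3, since 669 of the 15199 genes tested (4.40%) fell by as much or more. Plpp3 maps to chromosome 4, bases 105157347 to 105232764 (plus strand), and none of its 3159 exonic bases is shared with another gene. The 10 genes of the fibroblast list fell as well, with log2 fold changes from -9.23 for Fn1 to -0.81 for Vim, leaving aside Thy1, which had no KO-labelled count.

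Plpp1, which acts on the same lipids, fell more mildly. It stood at 21.4, 19.8 and 18.3 CPM in KO-labelled libraries, against 30.7, 27.6 and 27.8 CPM in WT-labelled libraries. The groups did not overlap, and edgeR put the log2 fold change at -0.60 ± 0.062 (SE, adjusted p = 1.27e-21). Of all genes tested, 22.0% fell by as much or more. Plpp1 maps to chromosome 13, bases 112800894 to 112867881 (plus strand). It shares 102 of its 1635 exonic bases with Mtrex, an RNA helicase gene on the opposite strand, which rose only slightly in KO-labelled libraries (log2 fold change 0.16 ± 0.028, SE).

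Plpp2 was the lipid phosphate phosphatase that rose. It stood at 65.2, 68.4 and 64.5 CPM in KO-labelled libraries, against 54.5, 53.7 and 50.8 CPM in WT-labelled libraries. The groups did not overlap, and edgeR put the log2 fold change at 0.26 ± 0.043 (SE, adjusted p = 3.15e-09). Of all genes tested, 33.3% rose by as much or more, and 68.8% differed by as much or more in either direction. Plpp2 maps to chromosome 10, bases 79526430 to 79533787 (minus strand), and none of its 1645 exonic bases is shared.

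Together these changes recast the makeup of the family. Per kb of exon, Plpp3 made up 0.282%, 0.245% and 0.340% of Plpp1 to Plpp3 transcripts in KO-labelled libraries, against 21.8%, 24.6% and 23.8% in WT-labelled libraries. Plpp2 made up 74.99%, 77.2% and 77.6% in KO-labelled libraries, against 49.9%, 49.7% and 49.1% in WT-labelled libraries. Plpp1 averaged 23.1 ± 1.42% in KO-labelled and 27.04 ± 1.27% in WT-labelled libraries (SD, n = 3), and this last difference turned when counts were not divided by length. The summed level of the family was 52.4 ± 1.69 CPM per kb in KO-labelled and 65.0 ± 1.84 CPM per kb in WT-labelled libraries (SD, n = 3). The KO-labelled sum was thus 80.7% of the WT-labelled one on this scale. Division by length gives less weight to Plpp3, which has 3159 exonic bases, against 1635 for Plpp1 and 1645 for Plpp2. Plpp3 averaged 23.4% of the family in WT-labelled libraries with this division and 37.0% without it, so its loss weighs more on undivided counts.

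**Figure D2:**
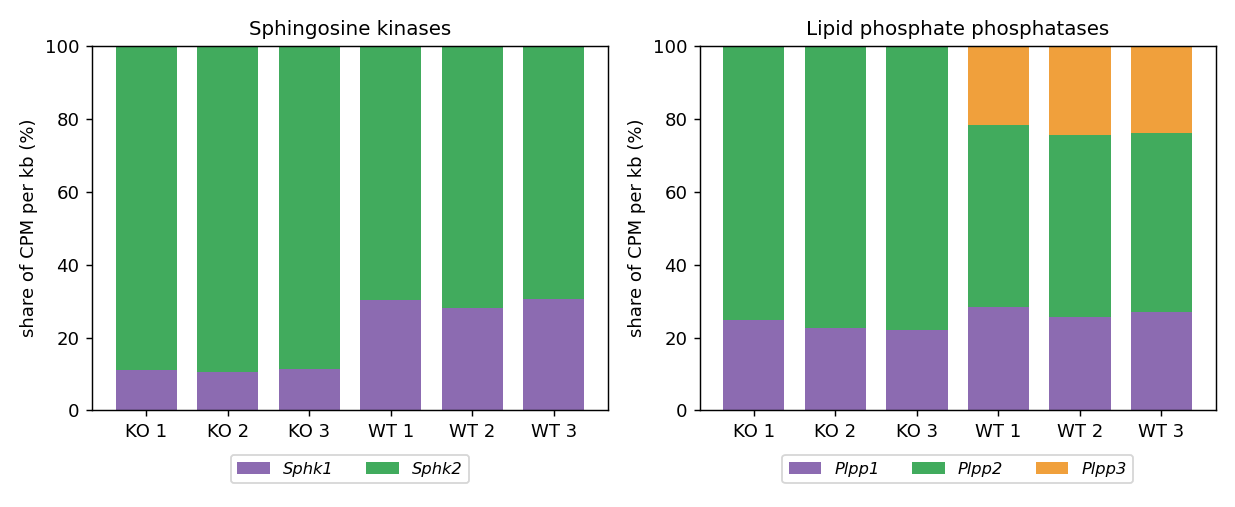
Share of each gene in the summed CPM per kb of its family (y axis, percent) in each library (x axis), for the kinases (left) and the lipid phosphate phosphatases (right). Plpp3 holds 21.8% to 24.6% of its family in the WT-labelled libraries and no more than 0.340% in the KO-labelled ones, where its segment is too thin to see.

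The stretches upstream of Plpp3 and Plpp2 are shown because these genes moved in opposite directions within one family. They are again the 250 bases before the RefSeq start (GRCm38.p6), with capitals for the same motifs. That of Plpp3 is chr4:105157097-105157346 on the plus strand, and that of Plpp2 is chr10:79533788-79534037 on the minus strand.
Plpp3: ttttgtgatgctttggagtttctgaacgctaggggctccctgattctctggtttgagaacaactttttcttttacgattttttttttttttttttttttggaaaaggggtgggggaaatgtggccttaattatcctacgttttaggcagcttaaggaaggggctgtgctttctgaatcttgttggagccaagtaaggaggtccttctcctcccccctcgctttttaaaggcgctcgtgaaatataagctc
Plpp2: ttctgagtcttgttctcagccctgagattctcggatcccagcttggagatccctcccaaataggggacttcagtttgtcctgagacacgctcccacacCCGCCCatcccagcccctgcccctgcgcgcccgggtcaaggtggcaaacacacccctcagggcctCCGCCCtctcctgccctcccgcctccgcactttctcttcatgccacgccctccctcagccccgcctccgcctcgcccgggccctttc
The Plpp3 stretch is 42.4% G or C, held 6 CpG dinucleotides and had none of the 4 motifs. The Plpp2 stretch is 65.6% G or C, held 14 CpG dinucleotides and had 2 GC boxes, 152 and 87 bases before the start, both on the other strand. No match says only that these letters are not in this window.

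**Figure D3:**
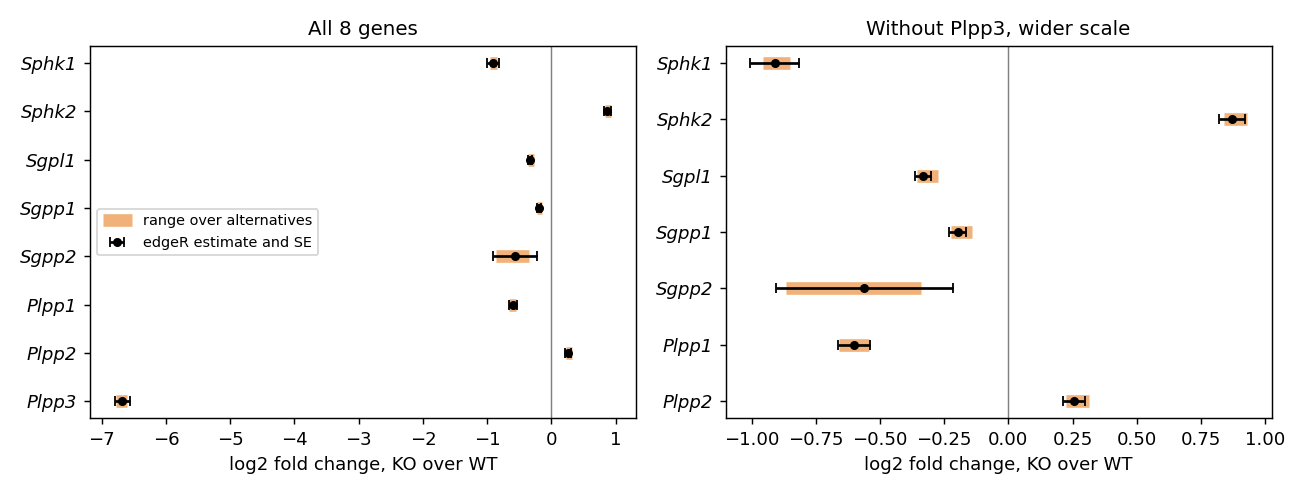
Fitted log2 fold change, KO-labelled over WT-labelled libraries (x axis), for each gene (y axis), with the edgeR estimate and its SE in black and the range over alternative processing as an orange band. The left plot shows all 8 genes, with Plpp3 at -6.68, and the right plot leaves out Plpp3 to widen the scale. Each band lies on the side of 0 of its estimate, and the SE of Sgpp2 is the widest.

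Per kb of exon, the order of the 8 genes differed between the groups. In KO-labelled libraries Plpp2 was first at 40.1 ± 1.28 CPM per kb, followed by Sgpp1 at 32.8 ± 0.890 and Sgpl1 at 19.4 ± 0.245 CPM per kb (SD, n = 3). Sphk2 at 12.3 ± 0.328 and Plpp1 at 12.1 ± 0.949 CPM per kb came next, and their ranges overlapped. This scale divides by all exonic bases, of which Sphk2 shares 864 of 4159 with other genes and Plpp1 102 of 1635. It thus understates Sphk2 more than Plpp1, and the overlap was read on full length only. Sphk1 stood at 1.51 ± 0.016 CPM per kb, and Plpp3 at 0.151 ± 0.020 and Sgpp2 at 0.137 ± 0.046 CPM per kb overlapped at the bottom. In WT-labelled libraries Sgpp1 was first at 36.1 ± 0.149 CPM per kb and Plpp2 second at 32.2 ± 1.17, before Sgpl1 at 23.4 ± 0.519, Plpp1 at 17.6 ± 1.05 and Plpp3 at 15.2 ± 0.855 CPM per kb (SD, n = 3). Sphk2 at 6.42 ± 0.225, Sphk1 at 2.71 ± 0.188 and Sgpp2 at 0.203 ± 0.061 CPM per kb followed, and no neighbours in this order overlapped. Of the genes of S1P breakdown, Sgpp1, Plpp2 and Sgpl1 thus stood above both kinases in both groups. Plpp1 and Plpp3 did so only in WT-labelled libraries, and Sgpp2 in neither group.

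Genes that act on S1P outside the cell held losses down to single counts as well as rises. Of 5 S1P receptors, 4 passed the filter, of which 1 rose and 3 fell. S1pr1, the receptor of migration and vascular development, had 1 count in KO-labelled and 1055 counts in WT-labelled libraries, 975 times as many for depth, with a counting interval of 175 to 38547. S1pr3 had 1 count in KO-labelled and 364 counts in WT-labelled libraries, 336 times as many, with an interval of 60.0 to 13323. The other receptor that fell, S1pr2, was named after its value was seen. It kept 29.6 ± 0.829 CPM in KO-labelled libraries, against 62.3 ± 3.26 CPM in WT-labelled libraries (SD, n = 3). Of 6 transporters and carriers, 2 rose, 3 fell and 1 did not pass. Abca1, a lipid exporter reported to release S1P, stood at 0.161 ± 0.101 CPM in KO-labelled and 53.8 ± 1.67 CPM in WT-labelled libraries, and Abcg2, another exporter, at 7.66 ± 0.905 CPM and 42.1 ± 2.42 CPM (SD, n = 3). The 2 that rose, named after their values were seen, were the S1P transporters Spns2 and Mfsd2b. Spns2 stood at 17.8 ± 0.686 CPM in KO-labelled and 6.61 ± 0.478 CPM in WT-labelled libraries (SD, n = 3). Mfsd2b stood at 4.52 ± 0.183 CPM and 0.841 ± 0.123 CPM in the same order.

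The genes upstream of the kinases were mixed in direction. Of 5 ceramidases, 3 passed the filter, and 1 of these rose. That gene was Acer3, an alkaline ceramidase, at 38.6 ± 0.924 CPM in KO-labelled and 21.1 ± 1.51 CPM in WT-labelled libraries (SD, n = 3). Asah1, the ceramidase gene with the highest CPM, was named after its value was seen and did not pass (edgeR adjusted p = 0.791). It stood at 143.5 ± 0.306 CPM in KO-labelled and 137.0 ± 1.89 CPM in WT-labelled libraries (SD, n = 3). Of 6 ceramide synthases, 5 passed the filter, with 2 higher and 3 lower. Cers6, which favours shorter acyl chains, changed by -0.61 ± 0.044 (SE) on the log2 scale, and Cers2, which favours very long ones, had 0.45 ± 0.025 (SE). The other synthases past the threshold with changes over 2-fold were Cers1 (-4.75 ± 0.337, SE) and Cers3 (2.04 ± 0.253, SE), which were expressed below the level set for naming and were chosen after their values were seen. Cers1 stood at 0.133 ± 0.095 CPM in KO-labelled and 3.51 ± 0.083 CPM in WT-labelled libraries, and Cers3 at 2.71 ± 0.322 CPM in KO-labelled and 0.627 ± 0.167 CPM in WT-labelled libraries (SD, n = 3). Of 6 genes of sphingoid base synthesis, 5 passed the filter, with 2 higher and 2 lower. Degs1, the desaturase that completes ceramide, changed by -0.31 ± 0.029 (SE) on that scale, and Sptlc1, a subunit of serine palmitoyltransferase, had 0.295 ± 0.046 (SE).

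Of 10 genes linked to the metabolism of the lyase products hexadecenal and phosphoethanolamine, 9 passed the filter, with 4 higher and 3 lower. Not all of these act on the products themselves. Acsl1, a long-chain acyl-CoA synthetase, stood at 92.4 ± 2.56 CPM in KO-labelled and 23.4 ± 0.470 CPM in WT-labelled libraries (SD, n = 3). Acsl4, which prefers arachidonic acid, stood at 62.2 ± 3.68 CPM in KO-labelled and 146 ± 4.18 CPM in WT-labelled libraries (SD, n = 3). Of the 9 other genes of the lipid phosphate phosphatase family, 6 passed the filter, with 3 higher and 2 lower. Plppr4, a related membrane protein known from neurons, had no count in KO-labelled and 494 counts in WT-labelled libraries, at least 152-fold lower with the KO-labelled group set at 3 counts over its libraries. Plpp7 rose, to 14.2 ± 0.744 CPM in KO-labelled libraries, against 0.948 ± 0.218 CPM in WT-labelled libraries (SD, n = 3). Over the 7 lists, 31 of 38 genes tested passed, 15 higher and 16 lower (18 and 14 with scaling by library totals), with a median log2 fold change of 0.02. The median of all genes tested was -0.02, and 79.2% of those passed. Leaving aside Asah1, which did not pass, the largest edgeR adjusted p among the genes named from these lists is 2.69e-10, that of Sptlc1.

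**Figure D4:**
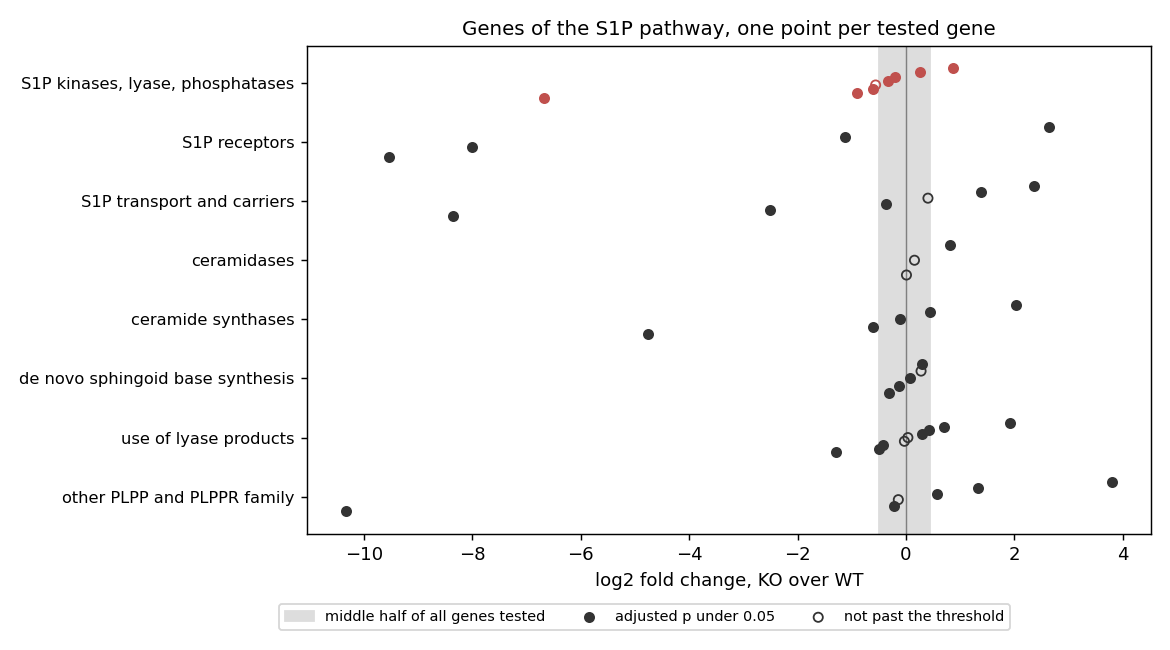
Fitted log2 fold change, KO-labelled over WT-labelled libraries (x axis), of each tested gene in the 8 S1P enzymes (red) and the 7 lists around them (black), with filled points past an adjusted p of 0.05. The grey band is the middle part of all genes tested, from -0.50 to 0.44 (first to last quartile). The lowest points are Plppr4, S1pr1, Abca1, S1pr3 and Plpp3, and the values of genes with 0 or 1 count in a group depend on the fit's prior count.

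The genes whose profiles were most like those of the kinases were listed as a description, since most genes differ between these groups and some near neighbours are to be found for any profile. Among 10103 other genes whose mean log2 CPM was 3 or more, the nearest to Sphk2, by Euclidean distance between log2 CPM profiles over the 6 libraries after each gene's mean was taken off, were Ino80c (0.053), Mtmr1 (0.062) and Brwd3 (0.064). Those nearest to Sphk1 were Ccdc157 (0.086), Yeats2 (0.087) and Ptprs (0.088).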

How the data were processed

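RNA was sequenced in 6 libraries, and the deposited values are raw gene counts, 1 file a library, from single 51-base reads over the exons of each Ensembl gene. The authors ran featureCounts 1.6.2 on Ensembl release 83 (GRCm38, mm10 names), per the file headers, and set no option on strand, multimapping or reads shared by genes. The submitters' processing notes list Trimmomatic 0.33, FastQC 0.11.2, Subread 1.6.2 and, unlike the headers, featureCounts 1.2.6. Coordinates are those of the files. Upstream sequences are RefSeq's (GRCm38.p6), whose table held 7 of the 8 members.

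Groups came from the sample titles. Levels are CPM of the library total, and CPM per kb divides these by exonic length. The comparison of 3 KO-labelled with 3 WT-labelled libraries used edgeR 4.0.16 in R 4.3.3, on the 15199 genes that filterByExpr kept, with TMM scaling, a robust quasi-likelihood F-test and no covariates. Adjustment was by Benjamini and Hochberg over these genes, with 0.05 as the threshold. An SE is the log2 fold change divided by the square root of F, as a size. Counting intervals and floors leave out all but counting error, because the reads carry no molecular identifiers. Within a group, counts of different libraries gave a chi-square of 1.49 to 2.15 per degree of freedom, so no pair differed as little as sampling noise alone, and none was counted as 1 library.

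The members and lists were chosen with earlier results of these data known. Named were all members, genes that share exonic bases with them, the 2 genes of each list past the threshold with the largest change (mean log2 CPM 1 or more), and the 3 genes nearest to each kinase. The other lists were named for cell types. The alternatives were median-of-ratios factors, library totals, DESeq2 1.42.0, limma-voom (limma 3.58.1), other filters, a replicate block, shares without length or with unshared length only, and leaving out each library.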

Additional observations from a re-analysis of the deposited data

How the results depend on the processing

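The log2 fold changes of all 8 members kept their direction and their side of the threshold under every alternative that gave a value. Counts of genes past the threshold stayed within 11004 to 13314, but with library totals more genes were higher than lower (6334 and 5707), unlike with TMM (5795 and 6245), and the pathway lists turned likewise (18 and 14, beside 15 and 16). Of the isoenzyme shares, the one that turned was the share of Plpp1 among Plpp1 to Plpp3 transcripts, which was lower in KO-labelled libraries per kb but higher by 0.78 percentage points without division by length; Plpp3, which nearly vanished, is the longer gene. The log2 fold change of Sgpp2 ran from -0.87 without KO-labelled replicate 3 to -0.34 without WT-labelled replicate 2, with adjusted p from 0.0533 to 0.428, and Sgpp2 had no value with a filter of over 1 CPM in 3 libraries, which removed it. The log2 fold change of Plpp3 ran from -6.78 to -6.60 and that of Sphk2 from 0.84 to 0.93 over all alternatives. The replicate block gave 12003 genes past the threshold, beside 12040 without it, and changed no call of a member. Libraries with the same number did not deviate together (Pearson's r across genes 0.012, -0.0028 and 0.018), and not every library correlated best with its own number, so the numbers were not taken as pairs. Unshared exonic length, chosen after the data were seen, gave a difference in Sphk2 share of 16.6 percentage points, beside 18.7. Depth limits Sgpp2, with 7 to 17 counts per library.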
